A study of Rattus norvegicus with 39 samples.

Results

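Calbindin (Calb1), calretinin (Calb2) and parvalbumin (Pvalb) are small calcium-buffering proteins, and their transcripts were followed in the CA1 field of the rat hippocampus under 4 states of corticosterone exposure. Members were chosen by name: every probe set of the deposited table whose platform gene symbol was Calb1, Calb2 or Pvalb. This gave 3 of 4736 named genes, each with 1 probe set, among 8740 probe sets that were not array controls. All 3 passed the filter on dim probe sets, which 6118 passed. The genes were picked after results of the same group comparisons were known, so their levels and differences between groups are a description. Whether a member passed the threshold is stated beside the share of all probe sets that did, and supports nothing.

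The 39 animals were male Fisher 344 rats, 18 months old when they were killed, with 1 Affymetrix array of CA1 tissue per animal. The Sham group (n = 10) had intact adrenal glands and received an inert pellet. All other animals were adrenalectomized and carried a slow-release pellet of corticosterone, the main glucocorticoid of the rat, for 3 months. The pellet held 25 mg in the LowCORT group (n = 10) and 200 mg in the IntermediateCORT group (n = 9). A last group (n = 10, labelled LowCORT+Inj and called the injected group here) had the smaller pellet too, and received 5 mg of corticosterone a day intraperitoneally on 4 days just before the end. The fluid differed along with the dose, since saline with sucrose was kept up as drinking water only for both 25 mg groups. All adrenalectomized animals had also received corticosteroid injections between surgery and pellet implantation. Tissue was collected on the study's last days, and the labels do not give the day of each animal. The comparisons asked how transcripts in CA1 depend on the level of glucocorticoid.

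All 3 proteins belong to the EF-hand superfamily, whose helix-loop-helix units bind calcium ions. Unlike calmodulin, which passes a calcium signal on to enzymes, they act mainly as mobile buffers that shape how far and how long a rise in calcium spreads in the cell. In the hippocampus calbindin is abundant in granule cells of the dentate gyrus, in superficial CA1 pyramidal cells and in some interneurons. Calretinin marks other interneurons, among them cells that contact interneurons, and parvalbumin marks fast-spiking basket and axo-axonic cells. Calbindin is known as a target of vitamin D in kidney, and in the hippocampus it has been linked to corticosteroids.

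Values were log2 expression values, so a difference of 1 is a factor of 2 in the deposited signal. Sgk1, a kinase gene that glucocorticoids induce, served as a check of the groups and had a log2 difference of -1.50 between LowCORT and Sham (SE 0.17, limma adjusted p = 2.9e-07) and of 0.71 between IntermediateCORT and LowCORT (SE 0.18, adjusted p = 0.0213). In the injected group it differed from LowCORT by 0.12 (SE 0.17, adjusted p = 0.883). Against Sham it had -0.79 (SE 0.18, adjusted p = 0.165) in IntermediateCORT and -1.38 (SE 0.17, adjusted p = 6.78e-06) in the injected group. The corticosteroid receptor genes Nr3c2 and Nr3c1 were checks too. For LowCORT against Sham, Nr3c2 probe sets had 0.44 (SE 0.11, adjusted p = 0.0218) and 0.28 (SE 0.09, adjusted p = 0.128). Those of Nr3c1 had 0.00 (SE 0.04, adjusted p = 0.99) and -0.02 (SE 0.05, adjusted p = 0.904). Array medians lay between 7.27 and 7.33. The difference between 3' and 5' probe sets of Gapdh, a sign of RNA or cDNA length, ranged from 0.44 to 1.15 in Sham, 0.46 to 1.15 in LowCORT, 0.44 to 1.10 in IntermediateCORT and 0.47 to 2.41 in the injected group. Of 10 markers fixed for CA1 pyramidal neurons, 3 had a probe set with 1 symbol. Of these, Itpka, a kinase of dendritic spines, and the transcription factor Pou3f1 were above the filter and Spink8 was below it.

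A pair of arrays stood apart for a member. The IntermediateCORT animal with subject number 11 had a Calb1 value of 9.26, while the other 8 animals of that group lay between 9.85 and 10.36. The same array had the lowest mean of the CA1 pyramidal markers in its group (9.34, others 9.98 to 10.33) and the lowest mean of the interneuron markers (8.73, others 8.76 to 9.02), and the highest mean of the CA3 and CA2 pyramidal markers (8.92, others 8.63 to 8.87). The Sham animal with subject number 6 had a Pvalb value of 8.52, while the other Sham animals lay between 9.07 and 9.30. Its beta-actin difference between 3' and 5' was the lowest of its group (0.10, others 0.20 to 1.52), and its CA1 marker mean was the highest (10.51, others 9.42 to 10.17). The part of these measures in the low values was not tested. The array of subject 11 also had the lowest Pvalb value of its group (8.89, others 8.95 to 9.55), and that of subject 6 the highest dentate marker mean (7.91, others 7.62 to 7.86) and the lowest CA3 and CA2 mean (8.66, others 8.69 to 8.86). Calb1 differences that hold subject 11, Pvalb differences that hold subject 6, and the correlations that passed with all arrays are given with and without them. Rankings of the most similar transcripts were made with all arrays only.

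Calb1 had a mean of 9.76 over all arrays, above 88.1% of the probe sets, a rank of signal that does not order transcripts by abundance. In Sham its values ran from 9.66 through a median of 9.95 to 10.21. In LowCORT they ran from 8.87 through 9.45 to 9.86. In IntermediateCORT they ran from 9.26 through 9.96 to 10.36, and in the injected group from 9.46 through 9.82 to 9.96. LowCORT animals were thus low as a group, with 9 of 10 below the lowest Sham animal, and the groups overlapped through the LowCORT animal at 9.86. The IntermediateCORT and Sham animals occupied nearly the same range, apart from the animal at 9.26.

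**Figure D1:**
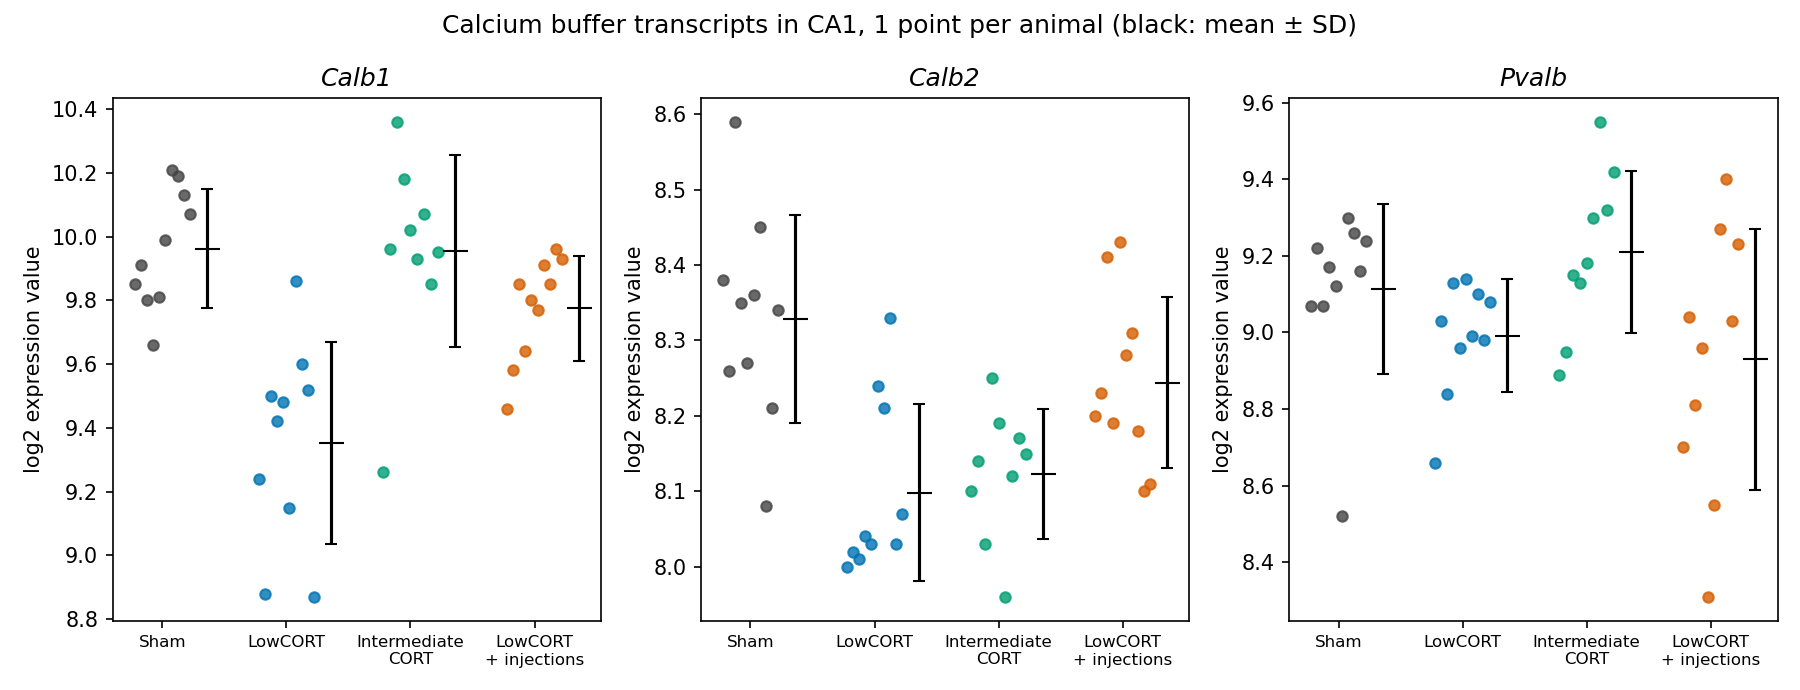
Log2 expression values (y axis) of Calb1, Calb2 and Pvalb in the 4 groups (x axis), 1 point per animal in the order of subject numbers, with the group mean ± SD in black. Calb1 is lowest in LowCORT, where 9 of 10 animals lie below the lowest Sham animal, Calb2 is low in both LowCORT and IntermediateCORT, and the Pvalb groups overlap.

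Calb1 was lower in LowCORT (9.35 ± 0.32, SD, n = 10) than in Sham (9.96 ± 0.19, n = 10), a log2 difference of -0.61 (SE 0.11) or 1.53-fold. This was the 8th largest fall among the 6118 probe sets tested. In bulk tissue, fewer cells with the transcript and less transcript per cell cannot be told apart. A probe set with no gene symbol, M31178_at, shares the stem of its name with the Calb1 probe set. It had -0.25 (SE 0.12, limma adjusted p = 0.383) for LowCORT against Sham. Calb1 and Calb2 were called lower in LowCORT at an adjusted p under 0.05 over all probe sets, 2 of 3 members, where 1.68% of all probe sets were called in either direction and 0.637% were called lower. Since the members were chosen with this comparison known, nothing is read from that count.

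In IntermediateCORT, with the 200 mg pellet, Calb1 stood at 9.96 ± 0.30 (SD, n = 9), which is 0.60 (SE 0.11) or 1.52-fold above LowCORT. It was the 10th largest rise of that comparison, and 7 of 9 IntermediateCORT animals lay above the highest LowCORT animal. M31178_at had 0.26 (SE 0.13, limma adjusted p = 0.424) there. Calb1 was the only member of the 3 called there, where 2.14% of all probe sets were called and 0.637% were called higher. Without the animal at 9.26 the difference was 0.69. Against Sham, the IntermediateCORT mean differed by -0.01 (SE 0.11), with 5 of 9 animals above the Sham mean and 4 below, and by 0.08 without that animal. None of the members was called between IntermediateCORT and Sham by limma, where 0.0163% of probe sets were called, and 1 member (Calb2) had an unadjusted p under 0.05.

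After 4 days of injections on top of the low pellet, Calb1 was 9.78 ± 0.16 (SD, n = 10). This was 0.42 (SE 0.11) or 1.34-fold above LowCORT, the 9th largest rise of that comparison, and all 10 injected animals lay above the LowCORT mean. It was not called. It was called when the LowCORT animal at 9.86 (0.48) or the injected animal at 9.46 (0.46) was left out, and with the order of subject numbers in the model (0.42). For the injected group against LowCORT, M31178_at had 0.05 (SE 0.12, limma adjusted p = 0.943). Of the 3 members, 0 were called in this comparison by limma and 2 had an unadjusted p under 0.05, where 0.343% of probe sets were called. All 10 injected animals also lay below the Sham mean, with a difference of -0.19 (SE 0.11), and 3 of them lay below the lowest Sham animal. Against Sham 0 members were called, 0 had an unadjusted p under 0.05, and 0.229% of probe sets were called.

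The order of Calb1 means was Sham, IntermediateCORT, injected and LowCORT. Sham and IntermediateCORT differed by 0.01, and IntermediateCORT and injected animals by 0.18, both less than the larger of the 2 SDs (0.30). The step from the injected group down to LowCORT was 0.42, larger than the SD of 0.32. Between the injected group and IntermediateCORT the difference of -0.18 had an SE of 0.11, and 0 of 10 injected animals lay outside the IntermediateCORT range, whose lower end is the animal at 9.26. Without that animal the difference was -0.27. In that comparison 0 members were called by limma, 2 had an unadjusted p under 0.05 (Calb2 and Pvalb), and 0.196% of probe sets were called.

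**Figure D2:**
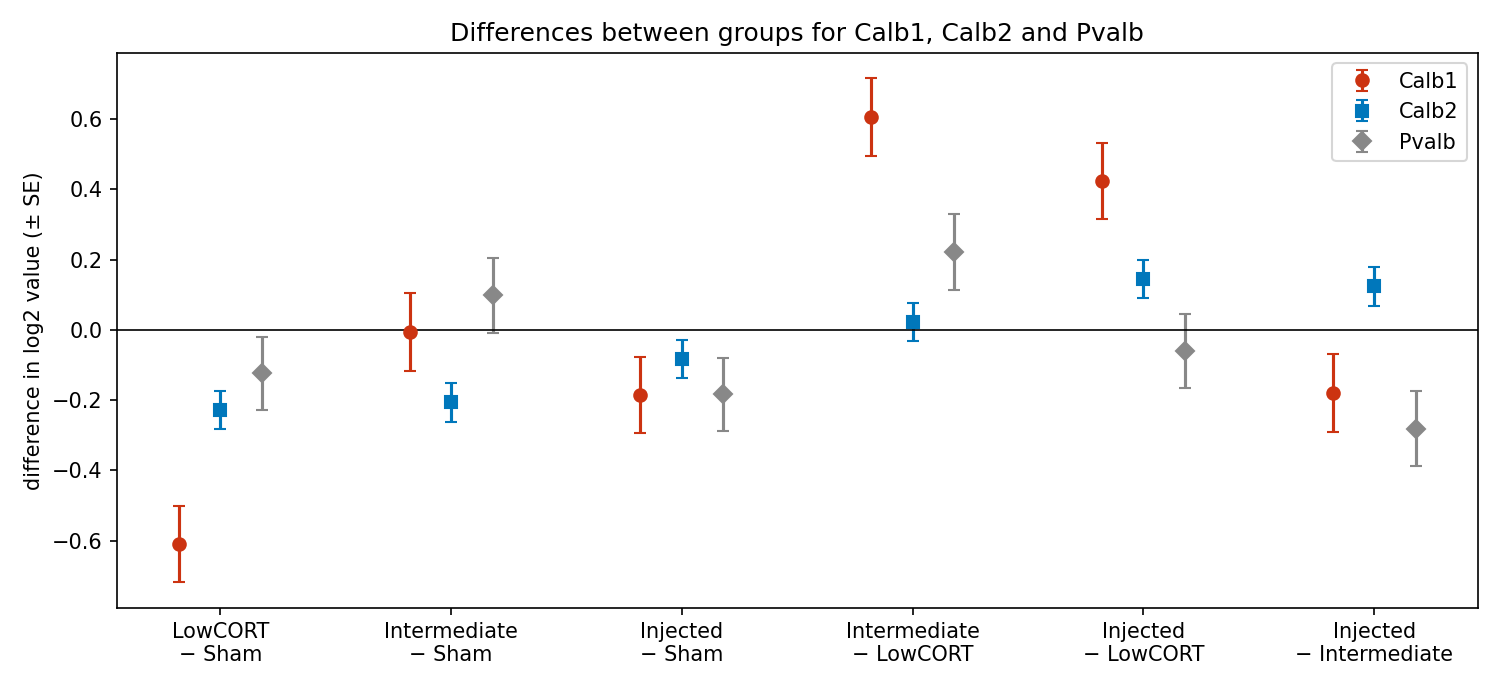
Differences in log2 value between groups (y axis, first group minus second, ± SE from limma) for Calb1, Calb2 and Pvalb in the 6 comparisons (x axis). Calb1 is at -0.61 for LowCORT against Sham and at 0.60 for IntermediateCORT against LowCORT, where Calb2 is at 0.02.

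Calb2 had a mean of 8.20 over all arrays, above 68.1% of the probe sets. Its values ran from 8.08 through a median of 8.34 to 8.59 in Sham and from 8.00 through 8.04 to 8.33 in LowCORT. In IntermediateCORT they ran from 7.96 through 8.14 to 8.25, and in the injected group from 8.10 through 8.22 to 8.43. The LowCORT animals were packed near the bottom of the scale, 7 of 10 below the lowest Sham animal, while 3 of them, at 8.21, 8.24 and 8.33, lay within the Sham range. The IntermediateCORT animals were low as well, with 9 of 9 below the Sham mean.

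Calb2 was 8.33 ± 0.14 in Sham (SD, n = 10) and 8.10 ± 0.12 in LowCORT (n = 10), a difference of -0.23 (SE 0.05) or 1.17-fold, the 169th largest fall. The call was lost when only these 2 groups entered the model. In IntermediateCORT the mean was 8.12 ± 0.09 (n = 9), which was -0.21 (SE 0.05) against Sham and 0.02 (SE 0.05) against LowCORT. The first of these was the 53rd largest fall in its comparison and was not called. In the injected group the mean was 8.24 ± 0.11 (n = 10), with all 10 animals above the LowCORT mean, at 0.15 (SE 0.05) above LowCORT, 0.12 (SE 0.05) above IntermediateCORT and -0.08 (SE 0.05) against Sham, none of them called.

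Calb2 means were ordered Sham, injected, IntermediateCORT and LowCORT. Sham and injected animals differed by 0.08, less than the larger SD of 0.14, and IntermediateCORT and LowCORT by 0.02, less than the SD of 0.12. The step of 0.12 between them, from the injected group to IntermediateCORT, was just larger than the SD of 0.11. Set side by side, the larger pellet stood 0.60 (SE 0.11) above the low pellet for Calb1 and 0.02 (SE 0.05) for Calb2, and the injections 0.42 (SE 0.11) and 0.15 (SE 0.05). These comparisons share the LowCORT arrays, and the difference between the genes was not tested.

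Pvalb had a mean of 9.06 over all arrays, above 81.1% of the probe sets. Its values ran from 8.52 through a median of 9.17 to 9.30 in Sham and from 8.66 through 9.01 to 9.14 in LowCORT. In IntermediateCORT they ran from 8.89 through 9.18 to 9.55. In the injected group they ran from 8.31 through 8.99 to 9.40, the widest range of the 4 groups for this gene. All groups overlapped, and the injected group held the lowest animal of all, at 8.31, and 1 animal, at 9.40, above the highest in Sham.

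Pvalb was not called in any of the 6 comparisons. Its means were 9.21 ± 0.21 in IntermediateCORT (SD, n = 9), 9.11 ± 0.22 in Sham (n = 10), 8.99 ± 0.15 in LowCORT (n = 10) and 8.93 ± 0.34 in the injected group (n = 10). Neighbours in this order differed by 0.10, 0.12 and 0.06, each less than the larger SD of the pair. The widest differences were 0.22 (SE 0.11) between IntermediateCORT and LowCORT and -0.28 (SE 0.11) between the injected group and IntermediateCORT. LowCORT against Sham was -0.12 (SE 0.10), and -0.19 without the Sham animal at 8.52. The injected group against Sham was -0.18 (SE 0.10), and -0.25 without it. IntermediateCORT against Sham was 0.10 (SE 0.11), and 0.03 without it.

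A list of other calcium-binding proteins held only 4 tested genes, so nothing is read from how many passed. They were the S100 proteins S100b and S100a1, the reticulum chaperone and buffer Calr, and the reticulum buffer Casq2. By limma, 0 of the 4 were called in any of the 6 comparisons. Of all probe sets, 0.0163% to 2.14% were called in a comparison. At most 1 of the 4 had an unadjusted p under 0.05 in a comparison, where 258 to 835 of all 6118 probe sets did. The median difference of the 4 was 0.01 for LowCORT against Sham and -0.03 for IntermediateCORT against LowCORT. Over all probe sets tested it was -0.006 and 0.006. S100a1 had the largest values of the 4, at 0.30 (SE 0.10, adjusted p = 0.104) and -0.29 (SE 0.10, adjusted p = 0.159), opposite in sign to Calb1. S100g, the small calbindin of intestine, and the parvalbumin relative oncomodulin (Ocm) had probe sets below the filter.

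Among 9 tested EF-hand calcium sensors, 1 fell and 8 did not pass in LowCORT against Sham, where 0.637% of all probe sets were called lower. In IntermediateCORT against LowCORT 1 rose and 8 did not pass, where 0.637% were called higher. The one that fell was Hpcal1, a relative of hippocalcin (-0.28, SE 0.07, adjusted p = 0.0409), and the one that rose was hippocalcin itself, Hpca, a sensor abundant in pyramidal cells (0.53, SE 0.12, adjusted p = 0.00632). All 9 values were negative in the first comparison, with a median of -0.12, beside -0.006 over all probe sets tested. All 9 were positive in the second, with a median of 0.15, beside 0.006. Some of the 9 lay near 0 in both by their brightest probe set. Examples were Cabp1 (0.00, SE 0.14, and 0.02, SE 0.15) and Ncs1 (-0.03 and 0.01, each with SE 0.05). A dimmer Ncs1 probe set had -0.31 and 0.32 in the same comparisons (each with SE 0.16, limma adjusted p = 0.389 and 0.44). These comparisons share the LowCORT arrays. Ppp3r1, the regulatory subunit of calcineurin, had 0.45 (SE 0.20, adjusted p = 0.324) in the second, and Calm2, a calmodulin gene, had 0.09 (SE 0.07, adjusted p = 0.713). In the injected group against LowCORT 0 of 9 were called by limma, where 0.343% of all probe sets were called. There 1 of the 9 had an unadjusted p under 0.05, with Hpca at 0.39 (SE 0.11, adjusted p = 0.183).

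**Figure D3:**
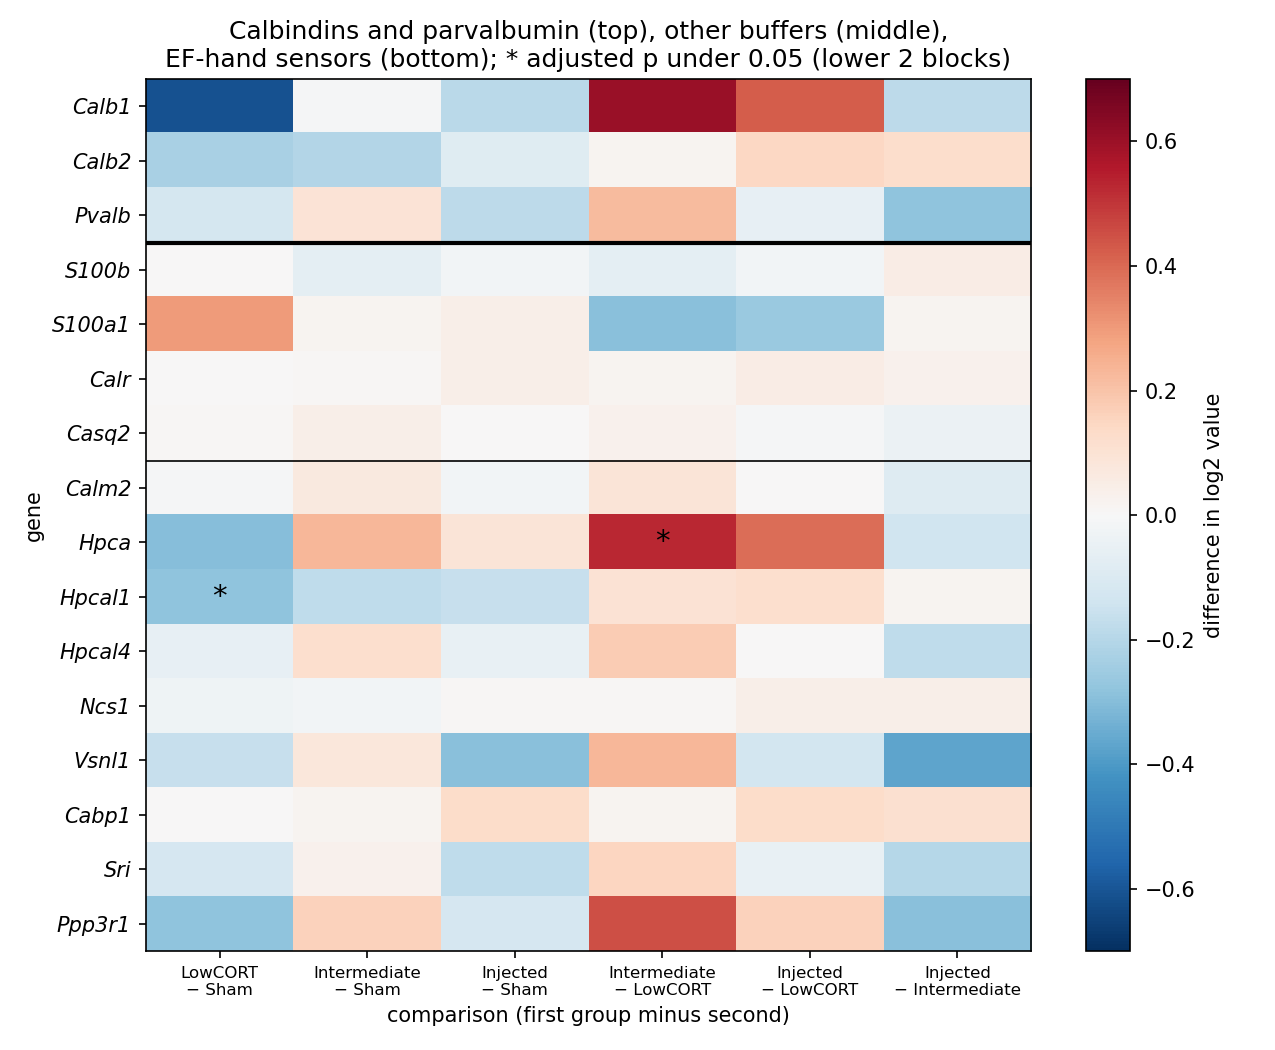
Differences in log2 value (colour) for Calb1, Calb2 and Pvalb, 4 other calcium buffers and 9 EF-hand sensors (rows) in the 6 comparisons (columns), with a star where limma's adjusted p was under 0.05 for a buffer or sensor. Stars stand at Hpcal1 (LowCORT against Sham) and Hpca (IntermediateCORT against LowCORT), and the 3 genes in the top block carry none because they were chosen on these comparisons.

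Calcium pumps, exchangers, store channels and voltage-gated calcium channels held 0 called genes of 18 tested in each of the 6 comparisons by limma. Only 0.0163% to 2.14% of all probe sets were called in a comparison, so nothing is read from that count. Between 0 and 4 of the 18 had an unadjusted p under 0.05. The 4 were reached in IntermediateCORT against Sham, where 258 of all 6118 probe sets had one. They were also reached in the injected group against IntermediateCORT, where 699 did. Medians of the 18 were -0.04 for LowCORT against Sham, 0.06 for IntermediateCORT against LowCORT and 0.02 for the injected group against LowCORT. Over all probe sets tested they were -0.006, 0.006 and 0.010.

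Markers of interneurons, the cells in which calretinin and parvalbumin mainly occur, had negative values in 11 of 13 tested genes for LowCORT against Sham. Their median was -0.18, beside -0.006 over all probe sets tested. Of the 13, 1 fell and 12 did not pass, where 0.637% of all probe sets were called lower. An unadjusted p under 0.05 was reached by 7 of the 13, and by 835 of all 6118 probe sets. The gene that fell was Gad1, which makes GABA (-0.31, SE 0.07, adjusted p = 0.00758), while Gad2, the other GABA-synthesizing enzyme, had -0.14 (SE 0.11, adjusted p = 0.624) and the vesicular GABA transporter Slc32a1 had -0.25 (SE 0.08, adjusted p = 0.0854). The mean of the 13 markers ranged from 8.93 to 9.09 in Sham, 8.69 to 9.00 in LowCORT, 8.73 to 9.02 in IntermediateCORT and 8.83 to 9.02 in the injected group. IntermediateCORT against Sham had a median of -0.13 with 10 of 13 negative, 0 called by limma and 3 with an unadjusted p under 0.05. Over all probe sets tested the median there was -0.005, 0.0163% were called and 258 of 6118 had an unadjusted p under 0.05. The part of these markers in the Calb2 difference was not tested.

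None of the markers of dentate granule and CA1 pyramidal cells passed the test between LowCORT and Sham, where 1.68% of all probe sets passed. Of the 4 tested, 1 had an unadjusted p under 0.05, as did 835 of all 6118 probe sets. Both tested dentate granule markers, the transcription factor Neurod1 and Lct, had positive values in LowCORT against Sham, 0.11 (SE 0.08, adjusted p = 0.618) and 0.06 (SE 0.06, adjusted p = 0.689). The third listed marker on the array, Tdo2, was below the filter. The mean of the 2 ranged from 7.62 to 7.91 in Sham, 7.62 to 8.09 in LowCORT, 7.73 to 7.93 in IntermediateCORT and 7.60 to 8.02 in the injected group. Of the CA1 pyramidal markers, Pou3f1 had -0.01 (SE 0.14, adjusted p = 0.985). Itpka had -0.41 (SE 0.13, adjusted p = 0.0967) and rose with the larger pellet against the low pellet by 0.58 (SE 0.13, adjusted p = 0.00982). The mean of these 2 ranged from 9.42 to 10.51 in Sham, 9.46 to 9.92 in LowCORT, 9.34 to 10.33 in IntermediateCORT and 9.59 to 10.44 in the injected group, and its part in the Calb1 differences was not tested.

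Of the markers of other cells, CA3 and CA2 pyramidal neurons (6 tested), choroid plexus (4), astrocytes (5) and microglia (4) held 0 called genes by limma in each of the 6 comparisons. Between 0 and 2 genes of such a list had an unadjusted p under 0.05, and medians lay between -0.09 and 0.10. Of all 6118 probe sets, 0.0163% to 2.14% were called in a comparison, and 258 to 835 had an unadjusted p under 0.05. Among 3 probe sets of the microglial gene Aif1, 1 that was not the brightest was called for LowCORT against Sham (0.53, SE 0.14, adjusted p = 0.0396) and for IntermediateCORT against LowCORT (-0.54, SE 0.14, adjusted p = 0.0335). Of 5 oligodendrocyte markers, the myelin enzyme Cnp fell in IntermediateCORT against LowCORT (-0.28, SE 0.07, adjusted p = 0.0137). Of 2 blood cell genes, the haem enzyme Alas2 rose in the injected group against LowCORT (0.31, SE 0.07, adjusted p = 0.037), and the mean with the haemoglobin gene Hbb ranged from 10.01 to 11.19 there and from 8.98 to 10.26 in LowCORT. The part of these values in the members' differences was not tested.

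Differences between animals of the same group were not used in choosing the genes, so they were tested. Each animal's deviation from its group mean was related to the other members, to 6 marker means, to the 3' to 5' differences of Gapdh and beta-actin and to the order of subject numbers, 30 relations in all, with two-sided permutation tests within groups and Benjamini-Hochberg adjustment. No relation between members passed. Calb1 and Calb2 had r = 0.028 and rho = -0.074 (permutation p = 0.865 and 0.666, adjusted p = 0.895 and 0.869, n = 39). Calb1 and Pvalb had r = 0.192 and rho = 0.206 (permutation p = 0.194 and 0.204, adjusted p = 0.387 and 0.557), and Calb2 and Pvalb had r = -0.186 and rho = -0.111 (permutation p = 0.274 and 0.514, adjusted p = 0.484 and 0.857). Leaving out the 2 arrays farthest from the median of the first gene gave r = -0.004, 0.132 and -0.241, and leaving out the pair that stood apart gave 0.008, 0.110 and -0.204.

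Calb1 was related to the mean of the dentate granule markers (r = 0.449 with permutation p = 0.0039 and adjusted p = 0.0292, n = 39, rho = 0.497 with permutation p = 0.00209 and adjusted p = 0.0157). Without the 2 farthest arrays r was 0.481. Sham alone gave r = 0.602, LowCORT 0.618, IntermediateCORT 0.552 and the injected group 0.054. The mean holds 2 genes, and the single values were 0.460 for Neurod1 and 0.144 for Lct. After the 3' to 5' differences were also removed, r was 0.454 and the adjusted p no longer passed (permutation p = 0.00754, adjusted p = 0.0772), and omitting the 2 farthest arrays then gave r = 0.289. Without the pair of arrays that stood apart, r was 0.478 (permutation p = 0.00529, adjusted p = 0.0529, n = 37), which did not pass, and rho was 0.502 (permutation p = 0.00285, adjusted p = 0.0285). Calb1 and the CA1 marker mean had r = 0.367 (permutation p = 0.0212, adjusted p = 0.105) and rho = 0.194 (permutation p = 0.234, adjusted p = 0.585). The r was 0.922 in IntermediateCORT, which holds the animal at 9.26, and 0.093 to 0.195 in the other groups. Without the arrays that stood apart r was 0.653 in IntermediateCORT and 0.176 over the 37 animals (permutation p = 0.264, adjusted p = 0.495).

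Calb2 was related to the mean of 2 markers of neighbouring regions, the kinase Prkcd and the dopamine receptor Drd2 (r = 0.531 with permutation p = 0.00142 and adjusted p = 0.0292, n = 39, rho = 0.513 with permutation p = 0.00172 and adjusted p = 0.0157). Without the 2 farthest arrays r was 0.539, without the pair that stood apart it was 0.532 (permutation p = 0.00216, adjusted p = 0.0324, n = 37), and within groups it was 0.573, 0.358, 0.491 and 0.657 in Sham, LowCORT, IntermediateCORT and the injected group. The single values were 0.605 for Prkcd, which is strong in thalamus, and 0.229 for Drd2. The 2 other markers of that list on the array, Rorb and Drd1, were below the filter. The mean ranged from 7.18 to 7.50 in Sham, 7.16 to 7.46 in LowCORT, 7.20 to 7.40 in IntermediateCORT and 7.28 to 7.55 in the injected group. Between LowCORT and Sham Prkcd had 0.08 (SE 0.05, adjusted p = 0.522) and Drd2 -0.06 (SE 0.05, adjusted p = 0.68). Between IntermediateCORT and LowCORT Prkcd had -0.17 (SE 0.05, adjusted p = 0.102), and a dimmer probe set of Prkcd was called there at -0.29 (SE 0.08, adjusted p = 0.0453). The part of Prkcd in the Calb2 differences was not tested. Calb2 was not related to the interneuron mean at the threshold (r = 0.253 with permutation p = 0.113 and adjusted p = 0.309, rho = 0.301 with permutation p = 0.0703 and adjusted p = 0.264). Within groups this r was 0.620, -0.023, -0.043 and 0.678 in Sham, LowCORT, IntermediateCORT and the injected group. Single interneuron markers ran from -0.070 for Gad2 to 0.432 for Tac1.

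**Figure D4:**
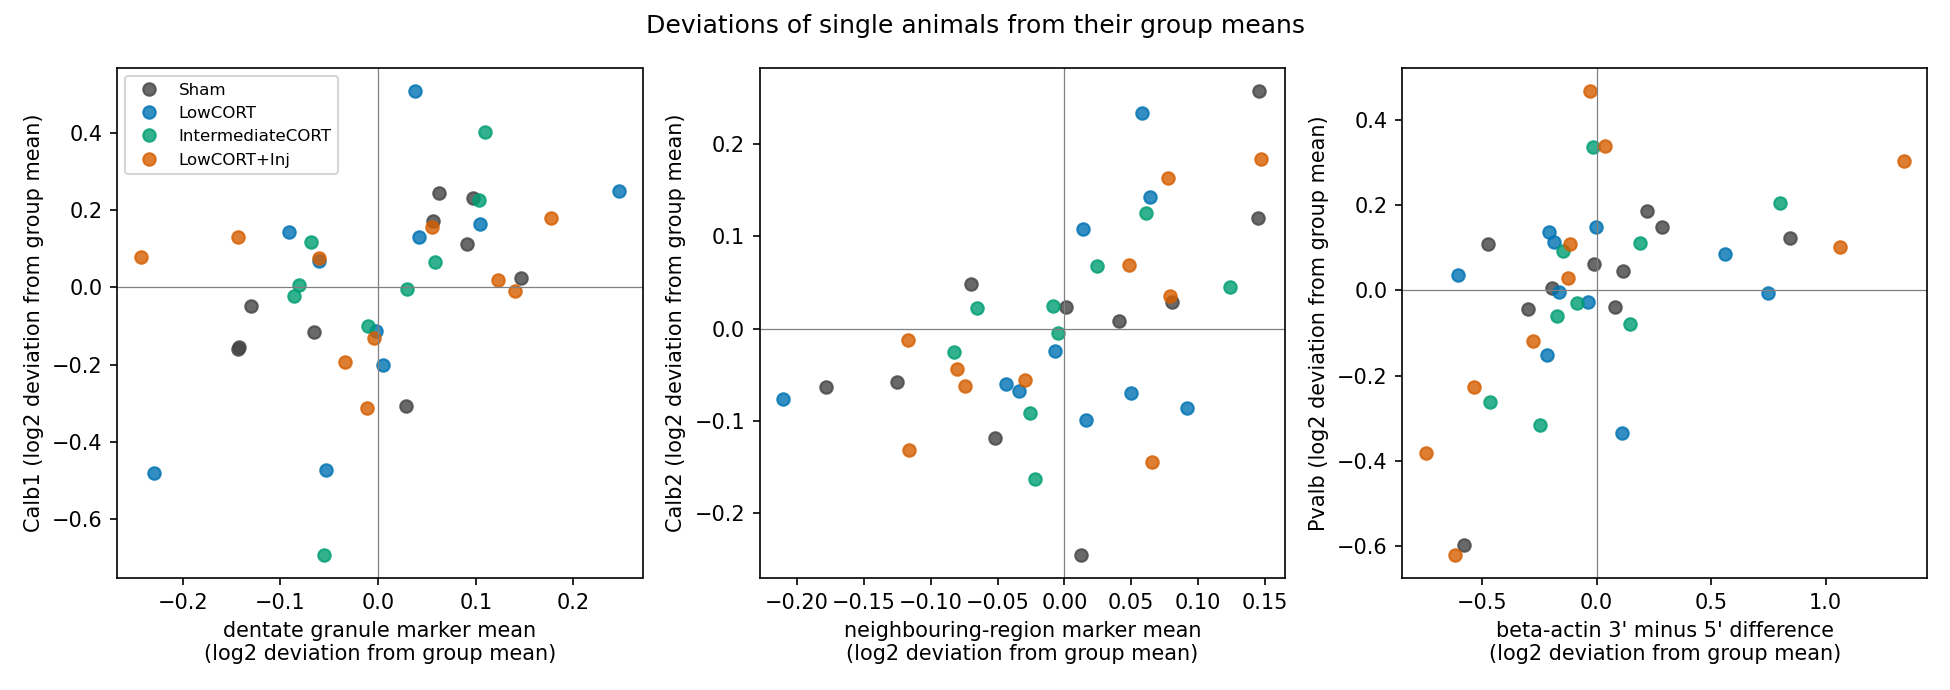
Deviations of single animals from their group means (log2 scale), with Calb1 against the mean of 2 dentate granule markers (left), Calb2 against the mean of 2 neighbouring-region markers (middle) and Pvalb against the beta-actin difference between 3' and 5' (right). Points are animals coloured by group, and all 3 panels slope upward, with r = 0.449, 0.531 and 0.524.

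Pvalb was related to the beta-actin sign of RNA or cDNA length, while its relation to the Gapdh sign did not pass (r = -0.220, permutation p = 0.331, adjusted p = 0.551). Deviations of Pvalb rose with the 3' to 5' difference of beta-actin, with Pearson's r = 0.524 (permutation p = 0.00354, adjusted p = 0.0292, n = 39) and Spearman's rho = 0.570 (permutation p = 0.00047, adjusted p = 0.00705). Without the 2 farthest arrays r was 0.509. Sham alone gave r = 0.593, LowCORT -0.057, IntermediateCORT 0.607 and the injected group 0.626. Without the pair of arrays that stood apart, r was 0.445 in Sham and 0.485 over all (permutation p = 0.0177, adjusted p = 0.133, n = 37), which did not pass, and rho was 0.516 (permutation p = 0.00268, adjusted p = 0.0285). They also rose with subject number inside the groups, with r = 0.469 (permutation p = 0.00364, adjusted p = 0.0292) and rho = 0.576 (permutation p = 0.00032, adjusted p = 0.00705). Omitting the 2 farthest arrays gave r = 0.473, and the single groups gave 0.145 for Sham, 0.566 for LowCORT, 0.903 for IntermediateCORT and 0.476 for the injected group. Without the pair that stood apart r was 0.505 (permutation p = 0.00143, adjusted p = 0.0324, n = 37). After removal of the 3' to 5' differences r was 0.353 (permutation p = 0.0287) and the adjusted p of 0.138 did not pass. The labels do not say what the order of subject numbers stands for.

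Calb1 also went with that order by rank (rho = 0.470, permutation p = 0.00437, adjusted p = 0.0262), while r did not pass (r = 0.403, permutation p = 0.0131, adjusted p = 0.0787), with 0.392 without the 2 farthest arrays. The single groups gave r = 0.723 for Sham, 0.154 for LowCORT, 0.245 for IntermediateCORT and 0.856 for the injected group. Without the pair of arrays that stood apart, r was 0.335 (permutation p = 0.0569, adjusted p = 0.341, n = 37) and rho was 0.401 (permutation p = 0.0207, adjusted p = 0.124), and neither passed. In IntermediateCORT alone r was then -0.543. After removal of the 3' to 5' differences neither passed (rho = 0.397, permutation p = 0.0169, adjusted p = 0.104, and r = 0.353, permutation p = 0.0412, adjusted p = 0.165). With the beta-actin measure, Calb1 had r = 0.220 (permutation p = 0.142, adjusted p = 0.343) and rho = 0.302 (permutation p = 0.0652, adjusted p = 0.264), and Calb2 had r = -0.247 (permutation p = 0.148, adjusted p = 0.343) and rho = -0.168 (permutation p = 0.325, adjusted p = 0.681), none of which passed.

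The transcripts most like each member were ranked by Pearson's r of the same deviations over the 39 animals, as a description. For Calb1 the highest were Ptpro, a receptor tyrosine phosphatase (0.688), Adh5, a formaldehyde-detoxifying dehydrogenase (0.600), Schip1, a protein of the axon initial segment (0.599), Trappc6b, of a vesicle-tethering complex (0.582), and Gng10, a G protein subunit (0.578). The lowest were the calcium-activated potassium channel Kcnma1 (-0.566), the G protein subunit Gnb4 (-0.559) and the small GTPase Ralb (-0.546). None of these 8 was called between LowCORT and Sham, where Ptpro had the largest value at -0.20 (adjusted p = 0.22) beside -0.61 for Calb1.

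For Calb2 the highest were the nicotinic receptor subunit Chrna4 (0.701), the cholecystokinin receptor Cckbr (0.685), the actin-regulating kinase Limk1 (0.680), Hnf4a (0.670), a transcription factor known from liver, and Or2b2 (0.640), of the olfactory receptor family. The lowest were Prickle2, a planar polarity protein (-0.575), the semaphorin receptor Nrp1 (-0.559) and Ppp3ca, the catalytic subunit of calcineurin (-0.559).

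For Pvalb the likeness was closer. The proteasome subunits Psmb1 (0.894), Psmc1 (0.881) and Psma4 (0.871), the RNA-binding protein Ssb (0.883) and the signal peptidase subunit Sec11a (0.862) were the highest. The lipoprotein receptor Scarb1 (-0.872), the calcium channel Cacna1b (-0.811) and the transcription factor Hes1 (-0.797) were the lowest. With the 3' to 5' differences also removed, the 5 highest lay between 0.742 (Sec11a) and 0.851 (Psmb1). Scarb1 was then at -0.834, Cacna1b at -0.674 and Hes1 at -0.576. None of the 5 highest of any of the 3 members is an interneuron marker of the list used here. With 13 such markers among 6118 probe sets tested, nothing is read from that.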

How the data were processed

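The authors deposited a table of log2 values, 8799 probe sets by 39 arrays. Their base was inferred from their range (2.82 to 14.37). Per the submitters' processing notes MAS5, RMA and R 2.7.1 were used, but the step each served is not stated there. No further normalization was applied. The 59 array controls were left out. Of 8740 remaining probe sets, 7006 had exactly 1 symbol, 308 several and 1426 none in the annotation of the platform. Probe sets with a mean at or above the 30th percentile (6.28) were tested, 6118 in all.

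The model (limma 3.58.1, R 4.3.3) held a mean for each of 4 groups over 39 arrays, with 35 residual degrees of freedom. Its 6 contrasts were adjusted by Benjamini-Hochberg over 6118 probe sets. The threshold was an adjusted p of 0.05, and tests were two-sided. The fit was tested on simulated data. Correlations used deviations from group means and 100000 permutations within groups (numpy 2.4.6). A listed gene was represented by its probe set with the highest mean. The 3 members and the 13 gene lists were chosen with earlier results of these data known. Named genes were all members, called list genes and defining markers, the 5 most and 3 least correlated genes per member, and Sgk1, Nr3c1 and Nr3c2. List genes that were not called, such as S100a1, Ppp3r1, Calm2, Cabp1 and Ncs1, were chosen after their values were seen. The number of arrays limits the precision, and arrays hold no read depth. No protein sequence or genome was used here, and no promoter is printed.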

Additional observations from a re-analysis of the deposited data

Results flagged for a closer look

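Of 12 sets of values, 3 genes in 4 groups, 2 held an animal far from the others, where chance gives about 1 in 20. For Calb1 in IntermediateCORT the lowest animal, subject 11, was at 9.26 and the next at 9.85, a gap of 0.54 of the whole range against a critical value of 0.493 for 9 animals. For Pvalb in Sham the lowest animal, subject 6, was at 8.52 and the next at 9.07, a gap of 0.706 of the range against a critical value of 0.466 for 10 animals.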

How the results depend on the processing

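Direction held for every called member difference under all settings tried. These calls describe chosen genes and support nothing, and the subject order covariate, centred within groups, could change only their SE. Calb1 stayed called for LowCORT against Sham under 9 of 9 other settings (-0.64 to -0.58) and 20 of 20 fits without 1 array (-0.67 to -0.56). For IntermediateCORT against LowCORT it stayed called under 10 of 10 (0.57 to 0.69) and 19 of 19 (0.55 to 0.69). The omission of subject 11, chosen after seeing the data, is the same fit in both of these counts, at 0.69. Calb2 in LowCORT against Sham kept its call in 8 of 9 settings and 20 of 20 fits without 1 array, and lost it with only the 2 groups compared (-0.23). Calb1 in the injected group against LowCORT gained a call with the subject order covariate (0.42) and in 2 of 20 fits without 1 array (0.37 to 0.48). Pvalb was not called under any setting. Uncalled values near 0 changed sign for Calb1 in IntermediateCORT against Sham (-0.06 to 0.08 without 1 array) and for Pvalb in the injected group against LowCORT (-0.11 to 0.01 without 1 array, 0.06 with 3' to 5' covariates and 0.01 with array weights).

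Counts of called probe sets moved more. LowCORT against Sham had 103 and went to 175 with 3' to 5' covariates, 185 with subject order and 170 with array weights. IntermediateCORT against Sham had 1 and went to 12, 3 and 2 in the same settings, and 4 with only the 2 groups compared. The injected group against Sham had 14 and went to 22, 30 and 33, 1 with only the 2 groups and 5 with the filter at the 50th percentile. IntermediateCORT against LowCORT had 131 and went to 338 with array weights. The injected group against LowCORT had 21 and went to 36 with subject order and 50 with array weights. The injected group against IntermediateCORT had 12 and went to 19 with 3' to 5' covariates, 32 with subject order, 105 with array weights, 6 with the 50th percentile and 0 by limma with only the 2 groups, where 709 had an unadjusted p under 0.05. The cause was not tested. With the 3' to 5' differences removed, the relations of Calb1 to the dentate markers (r = 0.454) and of Pvalb to subject order (r = 0.353) no longer passed. Without both arrays that stood apart, chosen after seeing the data, the relations of Calb1 to the dentate markers (r = 0.478) and of Pvalb to beta-actin (r = 0.485) no longer passed. The rank relation of Calb1 to subject order passed in neither setting (rho = 0.397 and 0.401). Taking each listed gene's probe set with the smallest p added 1 call to the neighbouring-region list (IntermediateCORT against LowCORT) and 1 to the microglial list in each of the LowCORT comparisons with Sham and IntermediateCORT. No paired analysis was possible because each subject number belongs to 1 animal of 1 group.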

Other observations

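The probe set M31178_at carries in its name the accession of the Calb1 probe set but has no gene symbol in the platform table, so it was not counted as Calb1. Its level was 7.21 ± 0.25 in Sham (SD, n = 10), 6.96 ± 0.34 in LowCORT (n = 10), 7.01 ± 0.28 in the injected group (n = 10) and 7.22 ± 0.28 in IntermediateCORT (n = 9). Its difference was -0.25 (SE 0.12, adjusted p = 0.383 by limma) for LowCORT against Sham and 0.26 (SE 0.13, adjusted p = 0.424) for IntermediateCORT against LowCORT, and it was not called in any of the 6 comparisons. The injected group lay 0.05 (SE 0.12, adjusted p = 0.943) above LowCORT for M31178_at, where Calb1 had 0.42.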
